A study of Mus musculus with 22 samples.

Results

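The serotonin receptor family was followed through RNA sequencing of mice and cultured cells with and without the histone demethylase gene *Phf8*. The family was taken as 10 genes, *Htr1a*, *Htr1b*, *Htr1d*, *Htr1f*, *Htr2a*, *Htr2c*, *Htr3a*, *Htr4*, *Htr5a* and *Htr7*, out of 39179 genes in the count tables. All 10 were found by gene identifier in each of the 22 samples. The samples came from wild-type (WT) and *Phf8* knockout (KO) mice of a mixed B6x129SvJ background, in which *Phf8*, a gene on the X chromosome, had lost exons 7 and 8 in the KO by Cre recombination of a loxP allele in a clonally expanded embryonic stem cell line. In the brain, 3 WT and 3 KO samples of prefrontal cortex (PFC) and 3 WT and 3 KO samples of ventral striatum (STR) were taken at 2 months. In culture, 2 WT and 2 KO samples of embryonic stem cells (ESCs) from blastocyst outgrowths and 3 WT and 3 KO samples of neural progenitor cells (NPCs) derived from E16.5 embryos were sequenced. The labels name no treatment for any group. The labels do not say that the samples of a group came from separate animals or cultures, so p-values measure the spread between these samples, which may be technical.

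Serotonin reaches the forebrain through axons of the raphe nuclei and acts on receptors that are made by the receiving cells and by the serotonin neurons themselves. The 5-HT1 receptors (*Htr1a*, *Htr1b*, *Htr1d*, *Htr1f*) and the 5-HT5A receptor (*Htr5a*) couple to inhibitory Gi/o proteins, and the 5-HT2 receptors (*Htr2a*, *Htr2c*) couple to Gq and phospholipase C. The 5-HT4 and 5-HT7 receptors (*Htr4*, *Htr7*) raise cyclic AMP through Gs, whereas *Htr3a* encodes a subunit of a cation channel that serotonin opens directly. The receptor mRNAs counted in a tissue are those of the cells in that tissue, so receptors on serotonin axons, whose mRNA lies in the raphe, are not measured in PFC or STR.

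Between 5898286 and 15539811 reads were counted on genes per sample, with the fewest in PFC (5898286 to 10148073) and STR (7159094 to 8594441). Levels are given as CPM, the counts in each 1000000 reads counted on genes, after scaling all 22 samples together, or as RPKM, which divides CPM by the exon length in kilobases and allows receptors to be compared with each other. *Phf8* itself was at 38.5 to 46.1 CPM in WT and 14.6 to 20.6 CPM in KO PFC, and at 43.6 to 49.6 CPM in WT and 13.4 to 20.3 CPM in KO STR. In culture it was at 63.2 and 71.2 CPM in WT and 16.48 and 22.26 CPM in KO ESCs, and at 41.0 to 43.3 CPM in WT and 14.8 to 16.4 CPM in KO NPCs, so the genotypes overlapped in neither brain region and neither culture. Reads on the exons left in place still count towards the gene. The summed level of 9 markers of striatal projection neurons was 1704 to 2319 CPM in STR and 301 to 369 CPM in PFC, and that of 7 markers of cortical excitatory neurons was 622 to 1198 CPM in STR and 1527 to 2028 CPM in PFC. In bulk tissue fewer cells of a type and less RNA per cell cannot be told apart.

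The 3 receptors with the smallest adjusted p-values for genotype in PFC were *Htr1a*, *Htr1b* and *Htr2a*, and the sequence in front of each is shown so that they can be compared. The sequences end at the RefSeq start site or, where the GENCODE start lies earlier, at the base before it, are given 5′ to 3′ on the strand of the gene, and come from the RefSeq promoter windows on GRCm38.p6. The CpG dinucleotides are in capitals. *Htr1a* is shown from chr13:105443443-105443638 (plus strand), *Htr1b* from chr9:81633833-81634082 (minus strand) and *Htr2a* from chr14:74640624-74640839 (plus strand).
Htr1a: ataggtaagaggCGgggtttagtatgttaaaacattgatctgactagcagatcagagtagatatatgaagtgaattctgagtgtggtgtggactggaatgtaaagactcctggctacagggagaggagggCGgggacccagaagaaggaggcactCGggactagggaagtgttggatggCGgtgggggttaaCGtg
Htr1b: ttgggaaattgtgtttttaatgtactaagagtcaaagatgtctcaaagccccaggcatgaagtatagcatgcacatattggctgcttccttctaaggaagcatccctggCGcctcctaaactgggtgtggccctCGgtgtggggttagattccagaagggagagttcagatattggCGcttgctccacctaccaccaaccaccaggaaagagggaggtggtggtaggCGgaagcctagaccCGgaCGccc
Htr2a: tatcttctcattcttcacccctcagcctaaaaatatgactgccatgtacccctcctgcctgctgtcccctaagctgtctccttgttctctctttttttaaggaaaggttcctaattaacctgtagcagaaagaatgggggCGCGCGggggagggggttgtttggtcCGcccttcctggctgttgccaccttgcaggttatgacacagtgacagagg
The 3 windows were near the middle of the range of all promoters in CpG and GC content. Over the full 250 bases, *Htr1a* held 6 CpG, *Htr1b* 6 and *Htr2a* 4, where the median of 32851 promoter windows was 6. Their GC content was 50.4%, 52.4% and 52.8%, beside a median of 52.4%. Among the other receptors, the windows of *Htr1f* (7 CpG, 49.2% GC) and *Htr2c* (5 CpG, 55.6% GC) also lay near the middle. *Htr1d* had windows with 6 and 20 CpG, at 51.6% and 72.4% GC. The *Htr5a* window held 13 CpG at 62% GC. The *Htr7* window held 41 CpG at 82% GC, above 98.9% of all windows by CpG count. A GC box (GGGCGG, either strand) was found in the *Htr1a*, *Htr2a* and *Htr1d* windows, and 32.7% of all windows held one. Its letters were not in the windows of *Htr1b* and the remaining receptors. None of the receptor windows held the letters TATAAA on either strand, which 12.4% of windows did. Of the 10 receptors, 8 had a promoter entry, and *Htr3a* and *Htr4* had none.

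In WT brain the order of the receptors by level differed between the regions. In WT STR, *Htr2c* (18.9 ± 1.94 RPKM, SD, n = 3) and *Htr1b* (12.4 ± 1.91 RPKM, SD, n = 3) led the family, and these were followed by *Htr1d* at 6.82 ± 1.27 RPKM (SD, n = 3). The ranges of *Htr2c* and *Htr1b*, and of *Htr1b* and *Htr1d*, did not overlap, whereas *Htr1d*, *Htr1a* and *Htr7* followed each other with overlapping ranges. *Htr2c* alone made up 29.0% of the summed receptor RPKM in WT STR with the union of exons as length, a share that depends on the length used.

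In WT PFC, *Htr3a* (8.31 ± 1.01 RPKM, SD, n = 3) and *Htr5a* (7.79 ± 0.965 RPKM, SD, n = 3) led, with *Htr7* at 6.17 ± 0.911, *Htr2c* at 5.19 ± 1.15 and *Htr1a* at 4.90 ± 0.692 RPKM (each SD, n = 3). Each of these overlapped the next in its sample values, so the top 5 have no settled order. A gap without overlap separated *Htr1a* from *Htr2a* (2.86 ± 0.365 RPKM, SD, n = 3) and *Htr1b* (2.83 ± 0.821 RPKM, SD, n = 3). *Htr4* at 0.312 ± 0.151 RPKM and *Htr1d* at 0.147 ± 0.0443 RPKM (each SD, n = 3) were the lowest of the family in PFC. The level of *Htr2c* depends on the length used, since its longest transcript (4883 bases) is shorter than the union of its exons (9328 bases): with the former, *Htr2c* was at 9.91 RPKM in WT PFC, above *Htr3a*.

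**Figure D1:**
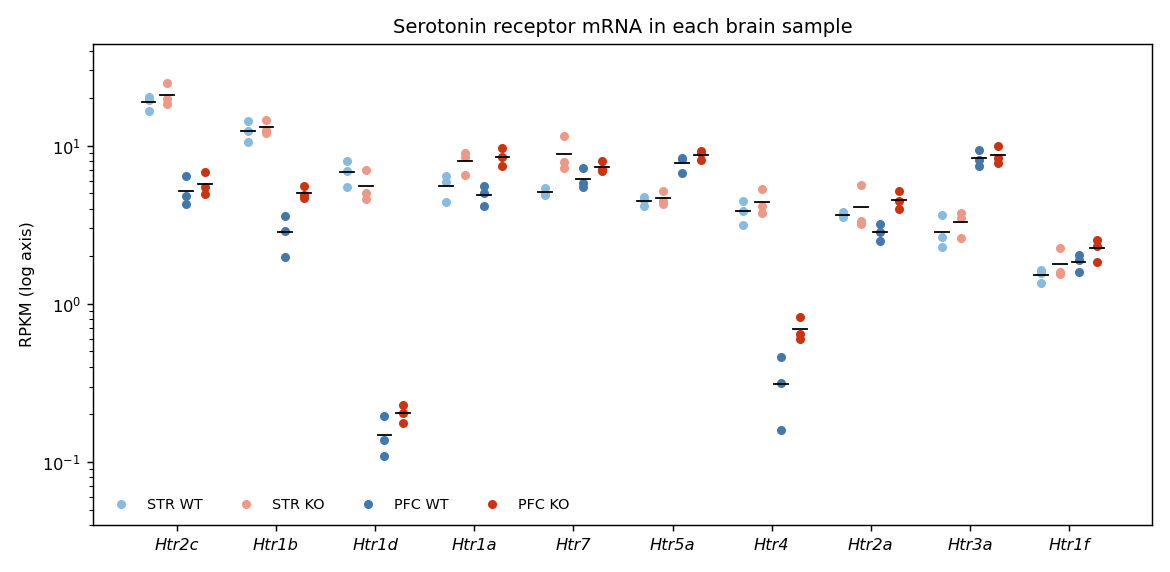
Level of each serotonin receptor mRNA (RPKM, log axis) in the 12 brain samples, ordered by the mean in WT STR. Points are single samples, coloured by region and genotype, and black lines are group means; *Htr1d* and *Htr4* sit lowest in PFC, and *Htr2c* and *Htr1b* highest in STR.

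The comparison of WT PFC with WT STR asked where each receptor was made. Of the 10 receptors, 2 were higher in PFC and 4 were lower at an FDR under 0.05. Of the 15555 genes tested 24.4% passed, 13% as higher and 11.4% as lower in PFC. *Htr1d* had the largest difference: the 3 WT STR samples held 257, 151 and 186 counts and each WT PFC sample held 4. These correspond to 17.5 to 25.7 CPM in STR and 0.349 to 0.627 CPM in PFC, a log2 fold change of -5.59 (SE 0.28, FDR 3.74e-07 by edgeR's quasi-likelihood test). *Htr4* was at 15.5 to 22.1 CPM in STR and 0.783 to 2.27 CPM in PFC, which gave a log2 fold change of -3.54 (SE 0.27, FDR 7.55e-06). Neither receptor was near overlap between the regions.

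*Htr1b*, whose product sits on axon terminals, was at 49.6 to 67.7 CPM in WT STR and 9.35 to 17.1 CPM in WT PFC (log2 fold change -2.18, SE 0.19, FDR 1.58e-05). *Htr2c* was at 156 to 190 CPM in STR and 40.0 to 60.4 CPM in PFC (log2 fold change -1.87, SE 0.14, FDR 6.41e-06). *Htr2c* is also known as an abundant mRNA of the choroid plexus, and 9 choroid plexus markers summed to 72.6 to 78.7 CPM in WT STR and 18.3 to 46.2 CPM in WT PFC. Their part in the difference of *Htr2c* was not tested.

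The receptors higher in PFC were the channel subunit *Htr3a* and the Gi/o-coupled *Htr5a*. *Htr3a* was at 15.4 to 19.6 CPM in WT PFC and 4.80 to 7.55 CPM in WT STR (log2 fold change 1.51, SE 0.19, FDR 2.05e-04). *Htr5a* was at 35.9 to 45.3 CPM in PFC and 22.5 to 25.3 CPM in STR (log2 fold change 0.79, SE 0.11, FDR 5.68e-04). *Htr1a* (-0.20, SE 0.16), *Htr1f* (0.26, SE 0.21), *Htr7* (0.26, SE 0.14) and *Htr2a* (-0.38, SE 0.13, FDR 0.0581) did not pass the test between the regions. *Htr2a* was lower in each WT PFC sample than in each WT STR sample, and its FDR lay between 0.0469 (without WT PFC replicate 1) and 0.167 with each sample left out.

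**Figure D2:**
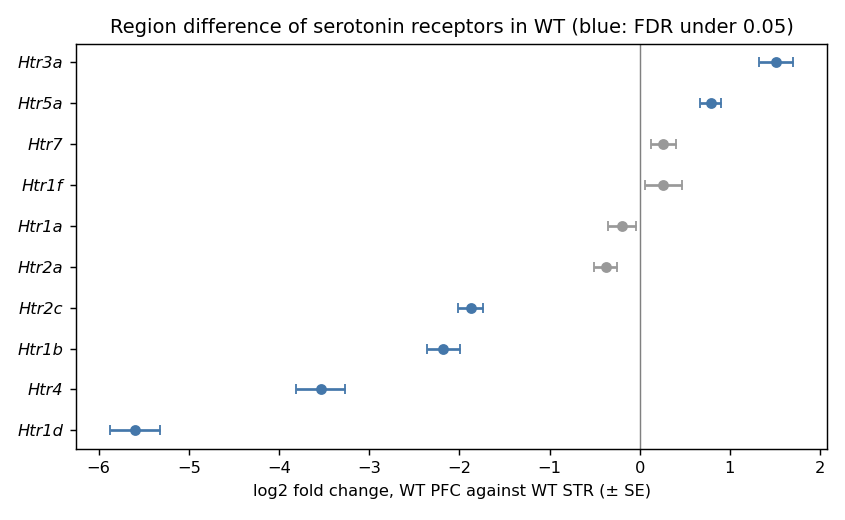
Log2 fold change of each receptor between WT PFC and WT STR (3 samples each), with bars of 1 SE; values above 0 are higher in PFC. *Htr1d* and *Htr4* lie farthest below 0, and *Htr3a* farthest above it.

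The genes whose levels ran most closely beside each receptor over the 12 brain samples were found by the root mean square (RMS) difference of log2(CPM + 0.5), each gene centred on its own mean. The measure follows region and genotype together and is a description over samples that share both. *Htr1d* ran with the dopamine receptor gene *Drd3* (RMS difference 0.27 on the log2 scale, while *Htr1d* itself had an SD of 2.13), *Syndig1l* and *Kcna5*. *Htr4* ran with *Plppr1*, *Doc2b* and the dopamine receptor gene *Drd1* (0.32 to 0.37). *Htr1b* was nearest to *St8sia2* (0.18), a polysialyltransferase gene, and then to *Mei4* (0.23) and the thyrotropin-releasing hormone receptor gene *Trhr* (0.26). *Htr2c* was nearest to *Zbtb7c*, *Tmem132e* and *Pde7b* (0.16 to 0.20).

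*Htr1a* was nearest to the protocadherin gene *Pcdh19* (0.16), *Mrgpre* (0.18) and *Sdk1* (0.19). *Htr2a* ran with the calcium channel gene *Cacna1e*, *Slit3* and the diacylglycerol kinase gene *Dgkg* (0.16 to 0.17). The nearest genes were *Coro2a*, *Ptprk* and *Fhod3* for *Htr3a*, *Klf6*, *Dab2ip* and *D430041D05Rik* for *Htr5a*, *C530008M17Rik*, *Arl10* and *Dpysl3* for *Htr7*, and *Zfp9*, *Klhl34* and *Nup133* for *Htr1f*. Within the family the smallest difference was that of *Htr1a* and *Htr2a* at 0.29, while their own SDs were only 0.38 and 0.32. There *Htr2a* ranked 96 among the 16027 other genes compared with *Htr1a*, and *Htr1a* ranked 1065 among those compared with *Htr2a*. *Htr1b* and *Htr2c* differed by 0.39, beside own SDs of 0.94 and 0.96. Here *Htr2c* ranked 62 among the genes compared with *Htr1b*, and *Htr1b* ranked 170 among those compared with *Htr2c*. No receptor was among the 3 nearest genes of another.

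The comparison of KO with WT PFC addresses whether receptor mRNA depends on *Phf8* in a region that serotonin axons supply. *Htr1a* (ENSMUSG00000021721), a single-exon gene on the plus strand of chromosome 13 from 105443639 to 105448122 of GRCm38, encodes the 5-HT1A receptor, which slows firing of the cells that carry it. It was at 18.7, 24.9 and 22.4 CPM in the WT samples and 33.4, 37.9 and 43.1 CPM in the KO samples. Every KO sample was above every WT sample. *Htr1a* rose 1.71-fold, a log2 fold change of 0.78 (SE 0.13, FDR 0.0258 by edgeR's quasi-likelihood test). It was 1 of 9 receptors tested that passed in PFC, where 0.638% of 15364 genes passed, and 0.163% passed with a higher level in KO. The FDR was 0.122 without KO replicate 2 and 0.204 without KO replicate 3, with log2 fold changes of 0.79 and 0.68.

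*Htr1b* (ENSMUSG00000049511), on the minus strand of chromosome 9 from 81628291 to 81633828, was at 9.35, 13.7 and 17.1 CPM in WT and 26.4, 22.1 and 23.0 CPM in KO PFC. The genotypes did not overlap, and the WT samples spread more than the KO samples. The log2 fold change was 0.84 (SE 0.18, FDR 0.0601), short of the threshold. With each sample left out in turn the FDR lay between 0.0258 (without WT replicate 3) and 0.294, and the log2 fold change between 0.64 and 1.02. *Htr1b* shares 852 exon bases with *D430036J16Rik*, an antisense gene on the plus strand. That gene was at 1.25 to 1.87 CPM in WT and 3.17 to 4.05 CPM in KO PFC (log2 fold change 1.08, SE 0.26, FDR 0.0960), so it too was higher in each KO sample. The strand setting of the brain counts is not given in the sources used here, and reads of the pair cannot be told apart without it. None of the other 9 receptors shares exon bases with another gene.

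The other 5-HT1 genes were low in PFC. *Htr1f*, on the minus strand of chromosome 16 from 64924729 to 65105854, was at 4.07 to 5.28 CPM in WT and 4.78 to 6.57 CPM in KO samples (log2 fold change 0.26, SE 0.20, FDR 0.711). *Htr1d*, on the plus strand of chromosome 4 from 136423524 to 136444398, had 4 counts in each WT sample and 5, 6 and 6 counts in the KO samples. It was left out of the test by the filter on low counts, and no difference was detectable at this depth.

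*Htr2a* (ENSMUSG00000034997), on the plus strand of chromosome 14 from 74640840 to 74709494, encodes the 5-HT2A receptor, which excites cortical pyramidal neurons and is the target of classical psychedelics. It was at 18.0, 16.0 and 13.9 CPM in WT and 25.1, 22.3 and 28.9 CPM in KO PFC. No KO sample overlapped a WT sample. The log2 fold change was 0.65 (SE 0.13, FDR 0.0540). With each sample left out in turn the FDR lay between 0.0484 (without WT replicate 1) and 0.322, and the log2 fold change between 0.55 and 0.74. The other Gq-coupled receptor, *Htr2c* on the plus strand of chromosome X from 146962513 to 147197277, was at 44.7, 60.4 and 40.0 CPM in WT and 63.3, 46.1 and 51.1 CPM in KO. Its genotypes overlapped, and its log2 fold change of 0.12 had a 95% interval of -0.19 to 0.43 (FDR 0.858).

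*Htr4* (ENSMUSG00000026322), on the plus strand of chromosome 18, had the largest log2 fold change of the family in PFC and the thinnest counts among those tested. It had 14, 26 and 5 counts in WT and 36, 27 and 26 counts in KO, or 1.54, 2.27 and 0.783 CPM against 4.08, 2.95 and 3.18 CPM. Each KO sample was above each WT sample in CPM. The log2 fold change was 1.04 (SE 0.32, FDR 0.196) and ranged from 0.80 to 1.47 as each sample was left out. It entered the test largely through its KO counts, and it did not pass.

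*Htr7*, the other Gs-coupled receptor, on the minus strand of chromosome 19 from 35958734 to 36057507, was at 18.7 to 24.5 CPM in WT and 23.6 to 27.2 CPM in KO PFC (log2 fold change 0.23, 95% interval -0.02 to 0.48, FDR 0.559). *Htr5a*, on the plus strand of chromosome 5 from 27842149 to 27855088, was at 35.9 to 45.3 CPM in WT and 43.7 to 49.7 CPM in KO (log2 fold change 0.15, 95% interval -0.05 to 0.35, FDR 0.670). *Htr3a*, on the minus strand of chromosome 9 from 48899213 to 48911099, was at 15.4 to 19.6 CPM in WT and 16.3 to 20.8 CPM in KO (log2 fold change 0.07, 95% interval -0.20 to 0.33, FDR 0.917). *Htr3a* and *Htr5a*, which had the highest mean RPKM in WT PFC with the union of exons as length, thus had genotype differences with intervals that included 0.

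**Figure D3:**
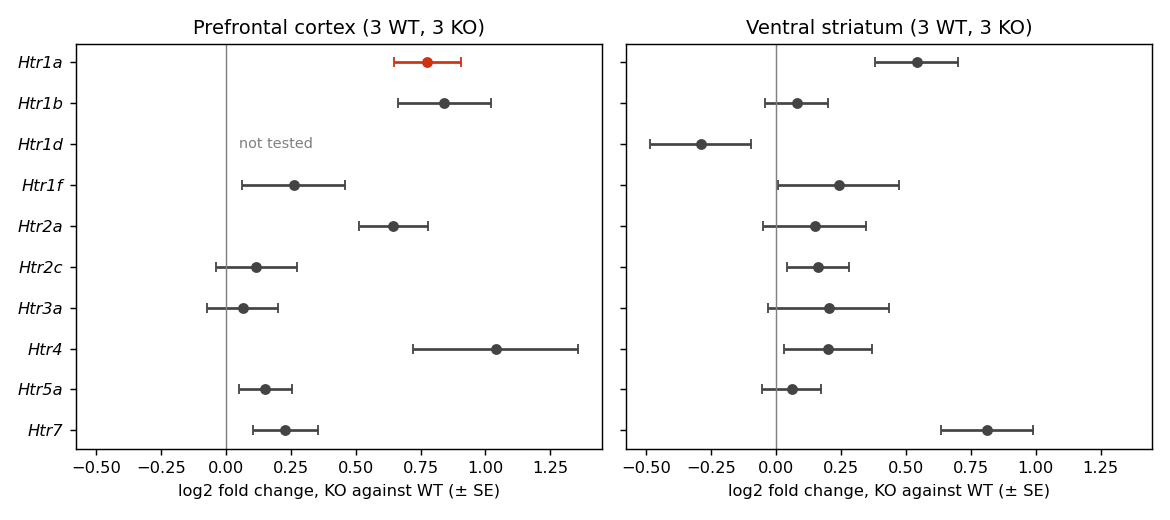
Log2 fold change of each receptor between KO and WT in PFC and STR, with bars of 1 SE and 3 samples per genotype; the red point is the receptor with an FDR under 0.05. In PFC *Htr1a*, *Htr1b*, *Htr2a* and *Htr4* lie between 0.65 and 1.04, and in STR *Htr7* lies at 0.81 and *Htr1a* at 0.54.

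All 9 receptors of the 10 that were tested in PFC had a log2 fold change above 0, with a median of 0.26, while 44.1% of all genes were above 0 and their median was -0.02. Outside the 10, the serotonin receptor genes *Htr6* (-0.04) and *Htr5b* (-0.26) were also tested in PFC and lay below 0. At an unadjusted p-value under 0.05, 4 receptors were higher in KO, beside 4.73% of all genes. For the same 4, *Htr1a*, *Htr1b*, *Htr2a* and *Htr4*, every KO sample lay above every WT sample, as for 8.68% of all genes. These counts are a description, and 3 remain in each without *Htr4*, which the filter kept largely through its KO counts. The summed receptor level was 39.8, 43.3 and 37.9 RPKM in WT and 54.9, 49.7 and 50.9 RPKM in KO PFC. In KO PFC the mean of *Htr1a* was 8.50 ± 1.08 RPKM (SD, n = 3), and its range overlapped that of *Htr3a* above it. With DESeq2, *Htr1a*, *Htr1b* (FDR 0.00374) and *Htr2a* (FDR 0.0136) passed, beside 0.448% of genes with a higher level in KO. With edgeR's exact test these 3 passed, beside 0.885% of genes, and *Htr4* had an FDR of 0.0376 under the same filter.

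Markers of other cells moved with genotype in the same PFC samples. Oligodendrocyte markers fell in KO for 5 of 8 genes, and their summed level was 1826 to 2407 CPM in WT and 1473 to 1575 CPM in KO. Of 5 markers of claustrum and insula, 1 rose (*Gnb4*), and the sum was 120 to 135 CPM in WT and 147 to 157 CPM in KO. Of 6 deep layer markers 0 passed (1 at an unadjusted p-value under 0.05, 0 with DESeq2), but their sum did not overlap, at 382 to 460 CPM in WT and 478 to 481 CPM in KO. Among 7 astrocyte markers 1 fell (*Gfap*), and the sums overlapped, at 1947 to 2119 CPM in WT and 1884 to 2003 CPM in KO. The septum marker sums did not overlap, at 92.3 to 108 CPM and 109 to 129 CPM, with 0 of 5 genes passing in edgeR's quasi-likelihood test (1 at an unadjusted p-value under 0.05, which also passed with DESeq2). That gene, *Dgkg*, was also one of the genes nearest to *Htr2a* over the brain samples. The 8 general neuron markers overlapped, at 2101 to 3016 CPM in WT and 2432 to 2585 CPM in KO, as did the 9 striatal markers, at 301 to 336 CPM and 309 to 369 CPM. Of the striatal markers 0 passed by edgeR's quasi-likelihood test or DESeq2, and 3 were higher and 0 lower in KO at an unadjusted p-value under 0.05. Among these 3 were *Drd1* and *Drd2*, with log2 fold changes of 0.39 and 0.93. No marker of these 7 lists was at 0 in all samples of a genotype. Among markers of upper layers, cortical excitatory neurons, interneurons, microglia and endothelium 0 genes passed in PFC, with 1, 0, 3, 0 and 3 at an unadjusted p-value under 0.05 and 0 with DESeq2. The part of these cell types in the receptor differences was not tested.

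**Figure D4:**
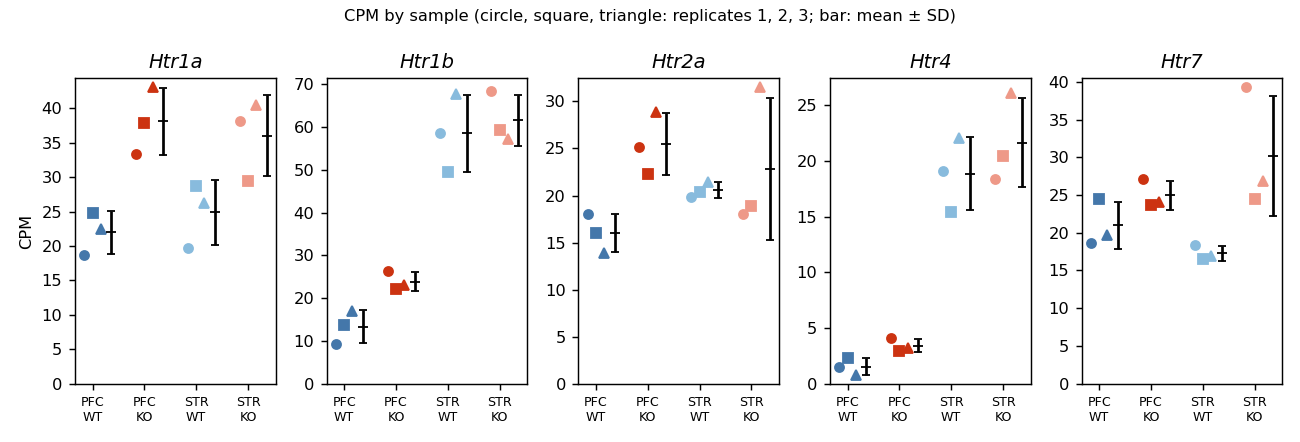
CPM of the 5 receptors with the largest genotype differences in each brain sample (circle, square and triangle for replicates 1, 2 and 3), with bars at the mean ± SD of the 3 samples of a group; axes start at 0. The PFC genotypes do not overlap for *Htr1a*, *Htr1b*, *Htr2a* and *Htr4*, and in STR *Htr7* is highest in KO replicate 1.

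In STR all 10 receptors were tested, and 0 passed at an FDR under 0.05, as for 0% of the 15476 genes tested by edgeR's quasi-likelihood test. *Phf8*, the deleted gene, did not pass this test in STR either (log2 fold change -1.37, SE 0.15, FDR 0.0956), so the count of 0 says little about the receptors. At an unadjusted p-value under 0.05, 2 receptors were higher in KO, beside 5.67% of all genes. For these 2, *Htr7* and *Htr1a*, every KO sample lay above every WT sample, as for 6.84% of genes. *Htr7* (ENSMUSG00000024798), whose product raises cyclic AMP, was at 5.40, 4.85 and 4.98 RPKM in WT and 11.6, 7.18 and 7.91 RPKM in KO STR. The log2 fold change was 0.81 (SE 0.18, FDR 0.397 by edgeR's quasi-likelihood test). DESeq2 gave *Htr7* an FDR of 0.0209 and the exact test 0.0164, where 0.281% and 0.478% of genes passed with a higher level in KO. KO replicate 1 stood highest, and without it the log2 fold change was 0.57 (FDR 0.525).

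*Htr1a* was at 19.7, 28.7 and 26.3 CPM in WT and 38.2, 29.4 and 40.5 CPM in KO STR, with a narrow gap between the highest WT and the lowest KO sample. Its log2 fold change was 0.54 (SE 0.16, FDR 0.416 by edgeR's quasi-likelihood test). Of the receptors highest in STR, *Htr2c* had a log2 fold change of 0.16 (95% interval -0.07 to 0.40) and *Htr1b* one of 0.08 (-0.16 to 0.32). A log2 fold change above 0 was found for 9 receptors in STR, beside 50.6% of all genes. *Htr1d* was the exception, at 25.7, 17.5 and 22.3 CPM in WT and 14.8, 22.5 and 16.0 CPM in KO (log2 fold change -0.29, SE 0.19, FDR 0.739). The remaining 5 lay between 0.06 (*Htr5a*) and 0.24 (*Htr1f*), and the genotypes overlapped for each. *D430036J16Rik* had a log2 fold change of -0.26 (SE 0.20) in STR, opposite in sign to its partner *Htr1b*.

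The sums of 4 lists of markers of other brain regions or tissues did not overlap between the genotypes in the same STR samples, and 3 were higher and 1 was lower in KO. The sum of the hypothalamus markers was 23.1 to 28.2 CPM in WT and 224, 51.2 and 40.4 CPM in KO replicates 1, 2 and 3. Of 10 such markers, 4 had an unadjusted p-value under 0.05 with a higher level in KO, 0 passed in edgeR's quasi-likelihood test and 2 passed with DESeq2, and *Sim1* was at 0 in every WT sample. Septum markers summed to 153 to 179 CPM in WT and 219 to 231 CPM in KO, and choroid plexus markers to 72.6 to 78.7 CPM in WT and 87.0 to 126 CPM in KO, with 0 genes of either list passing in the quasi-likelihood test. At an unadjusted p-value under 0.05 there were 3 septum and 2 choroid plexus markers, and with DESeq2 1 and 0 passed. KO replicate 1 held the most hypothalamus markers and the highest *Htr7*, and in KO replicates 2 and 3 *Htr7* was still above each WT sample. The lower list was that of claustrum and insula, at 256 to 277 CPM in WT and 197 to 252 CPM in KO, with 0 of 5 genes passing by edgeR's quasi-likelihood test or DESeq2 and 0 at an unadjusted p-value under 0.05. Some lists with overlapping sums also set KO replicate 1 apart. Cortical excitatory markers were at 950 to 1198 CPM in WT and 622, 964 and 1130 CPM in KO replicates 1, 2 and 3. Striatal projection markers were at 2074 to 2319 CPM in WT and 1704, 1976 and 2277 CPM in KO. Of 11 interneuron markers, 1 (*Calb2*) passed with DESeq2, higher in KO. The part of these cells in the levels of *Htr7* and *Htr1a* was not tested.

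The difference between the regions in the effect of genotype was tested directly over the 12 brain samples. The labels do not say whether PFC and STR samples came from the same mice. This test, like that between the WT regions, treated them as independent. Of the 10 receptors, 0 passed in edgeR's quasi-likelihood test, beside 0.00624% of 16028 genes, and 0 with DESeq2, and 3 had an unadjusted p-value under 0.05, beside 6.41% of genes. The effect on *Htr1b* was larger in PFC than in STR by 0.79 on the log2 scale (SE 0.23, FDR 0.620 by edgeR's quasi-likelihood test). That on *Htr4* was larger in PFC by 0.86 (SE 0.37, FDR 0.735), and that on *Htr7* differed by -0.55 (SE 0.23, FDR 0.727), being larger in STR. For *Htr1a* the difference was 0.26 with a 95% interval of -0.17 to 0.70. A difference of genotype effects between PFC and STR was therefore not shown for any receptor. In simulated data this test recovered 58% of 1.5-fold differences, which were placed on genes at or above the median level. A difference of that size could therefore be missed.

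Serotonin receptor mRNA was scarce in the cultured cells. ESC markers summed to 4342 to 5658 CPM in ESCs and 14.2 to 24.2 CPM in NPCs, and neural progenitor markers to 732 to 848 CPM in ESCs and 4726 to 6423 CPM in NPCs, so each culture held the markers of its label. The NPC samples also held astrocyte markers (3411 to 7424 CPM) and oligodendrocyte markers (222 to 3232 CPM). Both sums were lowest in replicate 2 of each genotype. *Htr1a* and *Htr1f* had 0 counts in all 10 cultured samples, which allows up to 0.0596 CPM over the 4 ESC samples and 0.0361 over the 6 NPC samples (3 counts of the total; counting error only). *Htr2c* had 0 counts in the ESC samples, and *Htr5a* and *Htr7* had 0 counts in the NPC samples. *Htr7* had 20 counts over the ESC samples, or 0.398 CPM (exact 95% Poisson interval 0.243 to 0.614). *Htr1d*, *Htr4* and the remaining sums of *Htr2c* and *Htr5a* came to 7 counts or fewer.

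The 3 receptors that could be tested in culture were *Htr1b*, *Htr2a* and *Htr3a*. Per length, *Htr1b* was highest in WT ESCs at 1.15 ± 0.720 RPKM (SD, n = 2), and *Htr3a* in WT NPCs at 0.782 ± 0.239 RPKM (SD, n = 3). *Htr1b* had 30 and 91 counts in WT and 41 and 84 counts in KO ESC samples, or 4.89 CPM over the 4 samples (exact 95% Poisson interval 4.30 to 5.54). The samples numbered 2 were about as high in both genotypes and those numbered 1 were lower in both. In NPCs *Htr1b* had 28, 20 and 28 counts in WT and 29, 28 and 32 counts in KO samples. The counts of the cultured cells were not stranded, so strand does not separate *Htr1b* there from its antisense partner *D430036J16Rik*. That gene had a mean of 0.137 CPM in WT ESCs and 0.825 CPM in WT NPCs. *Htr3a* had 13 to 23 counts and *Htr2a* 7 to 23 counts in the NPC samples. None of the 3 passed between KO and WT in either culture, where 0.00697% of 14351 genes in NPCs and 0% of 15080 genes in ESCs did by edgeR's quasi-likelihood test. Of the 3, 0 had an unadjusted p-value under 0.05, beside 3.03% of genes in NPCs and 1.13% in ESCs, and 0 passed with DESeq2 in either culture. *Phf8* itself passed the quasi-likelihood test in NPCs (FDR 0.0285) but not in ESCs (log2 fold change -1.79, SE 0.22). In simulated data this test recovered 30% of 1.5-fold and 90% of 2-fold changes in NPCs. In ESCs it recovered 0% and 22%, so changes of this size could be missed.

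In WT cells *Htr1b* was lower in NPCs than in ESCs by a log2 fold change of -1.31 (SE 0.46, FDR 0.0470 by edgeR's quasi-likelihood test), a comparison in which 71.2% of 15938 genes passed and 36.6% did so with a lower level in NPCs. Its FDR was 0.324 without WT ESC replicate 2 and 0.0999, 0.0799 and 0.105 without WT NPC replicates 1, 2 and 3, so the call rests on each of these samples. *Htr3a* (0.97, SE 0.41, FDR 0.0825) and *Htr2a* (0.82, SE 0.77, FDR 0.373) did not pass.

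**Figure D5:**
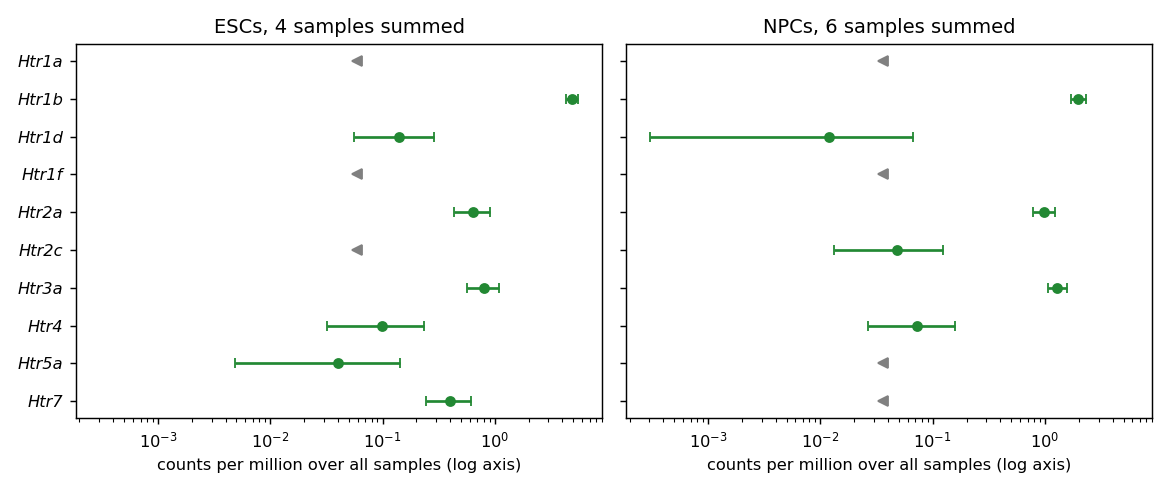
CPM (log axis) of each receptor summed over the 4 ESC samples and the 6 NPC samples, with exact 95% Poisson intervals for counting error; grey triangles mark the limit of 3 counts where no read was counted. *Htr1a* and *Htr1f* had no counts in either culture, whereas *Htr1b*, *Htr2a* and *Htr3a* were counted in both. The values are not divided by gene length, so a row is to be compared between cultures and not with other rows.

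The genes around serotonin itself were measured in the same samples. Of 7 genes for the synthesis, transport and breakdown of serotonin, 5 were tested in PFC and 4 in STR, and 0 passed in either by edgeR's quasi-likelihood test or DESeq2, with 2 lower in KO PFC and 1 higher in KO STR at an unadjusted p-value under 0.05. Of all genes, 0.638% passed the quasi-likelihood test in PFC and 0% in STR. *Tph2*, the neuronal enzyme that begins serotonin synthesis, was at 2.11 CPM in WT and 0.769 CPM in KO PFC (log2 fold change -1.48, SE 0.34, FDR 0.0833), and it passed with edgeR's exact test. The decarboxylase gene *Ddc* was at 22.2 ± 1.30 CPM in WT and 34.2 ± 6.17 CPM in KO STR (each SD, n = 3), which gave a log2 fold change of 0.63 (SE 0.14, FDR 0.367), and it passed with the exact test. The transporter gene *Slc6a4* was at 0.0291 CPM in WT PFC and was not tested, and *Maoa* and *Maob*, which break serotonin down, had log2 fold changes between -0.10 (*Maoa* in PFC) and 0.04 (*Maoa* in STR).

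Of 4 further serotonin receptor genes, *Htr6* and *Htr5b* were tested in the brain and *Htr2b* and *Htr3b* were not. *Htr6* had a log2 fold change of -0.04 (SE 0.21) in PFC and -0.50 (SE 0.24, FDR 0.605) in STR, and *Htr5b* one of -0.26 (SE 0.28) in PFC and -0.18 (SE 0.35) in STR. Neither passed in either region, and neither had an unadjusted p-value under 0.05.

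Downstream of the receptors, 0 genes passed in PFC or STR by edgeR's quasi-likelihood test or DESeq2 among 9 Gi/o signalling genes, 8 Gq signalling genes, 11 Gs signalling genes, 10 receptor partners, arrestins and RGS proteins, and 3 genes of the ADAR family, to which the enzymes that edit the *Htr2c* mRNA belong. With 0.638% of all genes passing the quasi-likelihood test in PFC and 0% in STR, lists of this size would seldom hold a passing gene. At an unadjusted p-value under 0.05 in PFC there were 1 gene of the Gi/o list, 0 of Gq, 1 of Gs, 1 of the partners and 1 of the ADAR family. In STR there were 1 (*Kcnj5*), 1 (*Plcb4*), 2 (*Gnas* and *Adcy8*), 1 (*Rgs4*) and 1 (*Adarb2*) in the same order, of which *Rgs4* was lower in KO, and *Adarb2* passed with the exact test. In PFC *Kcnj6*, a potassium channel that Gi/o-coupled receptors open, was higher (log2 fold change 0.36, SE 0.16, FDR 0.433), as were *Adcy3* (0.27, SE 0.09, FDR 0.220) and *Adarb2* (0.38, SE 0.12, FDR 0.226), whose product has no known editing activity. *Cav1* was lower (-0.45, SE 0.12, FDR 0.116) and passed with the exact test. *S100a10*, whose product p11 brings 5-HT1B receptors to the cell surface, was at 31.9 CPM in WT and 29.3 CPM in KO PFC (log2 fold change -0.11, SE 0.16). Of 13 transcription factors linked to *Htr1a*, 12 were tested in each region and 0 passed by either tool, with 1 in each region at an unadjusted p-value under 0.05. These were *Rela* in PFC (-0.23, SE 0.10, FDR 0.403) and *Cc2d1a* in STR (0.19, SE 0.07, FDR 0.491).

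Genes within 1 Mb of a receptor were compared in the same way. For each of the 10 receptors, 0 neighbouring genes passed in PFC or STR by edgeR's quasi-likelihood test or DESeq2. By the former test 0.638% of all genes passed in PFC and 0% in STR, so these counts say little about the neighbours. Around *Htr1b*, 3 of 19 annotated genes were tested in PFC, and 2 had an unadjusted p-value under 0.05 with a higher level in KO. These were *D430036J16Rik* and *Mei4*, a meiotic gene 229842 bases away that also ran close to *Htr1b* over the brain samples (log2 fold change 1.56, SE 0.32, FDR 0.0556 in PFC). Both passed with the exact test. Around *Htr1a*, 5 of 16 annotated genes were tested, and 1 had an unadjusted p-value under 0.05, *Rnf180*, named after its values were seen (log2 fold change 0.47, SE 0.13, FDR 0.140). Around *Htr2a*, 8 of 34 annotated genes were tested in PFC, and 0 had an unadjusted p-value under 0.05.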

How the data were processed

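RNA was sequenced with a TruSeq kit from 22 samples, grouped by their labels into tissue and genotype. The deposited files hold raw counts of reads per gene, 1 table per sample, which the authors made by aligning reads with STAR to mm10/GRCm38 and counting them with HTSeq on Ensembl release 75, and the submitters' processing notes also name CASAVA 1.7. Neither the versions of STAR and HTSeq nor the strand setting of the brain counts are given in the sources used here. Rows that name no gene were left out of library sizes, and of the uniquely aligned reads 2.37% to 2.92% were ambiguous and 9.42% to 16.8% lay on no gene. Alignments that were not unique made up 33.2% to 45.5% of the total in cultured cells and 7.62% to 8.90% in brain. Of 39179 gene identifiers, 37607 matched GENCODE M21, holding 99.709% of the counts.

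KO was tested against WT separately in each tissue. The robust quasi-likelihood test of edgeR 4.0.16 (R 4.3.3) was used with TMM factors and edgeR's low-count filter, and without a replicate block. The threshold was an FDR under 0.05 (Benjamini-Hochberg, all genes tested). WT PFC was compared with WT STR and WT NPCs with WT ESCs in the same way, and genotype by region over both brain regions. Intervals of log2 fold changes are the estimate ± 1.96 SE, and those of summed counts are exact Poisson intervals, which cover counting error only. RPKM and CPM were computed here from TMM factors over all samples and GENCODE exon lengths. Alternatives were DESeq2 1.42.0, edgeR's exact test, RLE in place of TMM, the filter omitted or replaced by 10 or more counts per sample, both brain regions fitted together, a log2 fold change beyond 1 as well, the replicate number as a block, and each sample left out in turn. The fits were tested on simulated data, with changes placed on genes at or above the median level and spread following the fitted trend. Of simulated 1.5-fold changes, 98% were recovered in PFC, 90% in STR, 30% in NPCs and 0% in ESCs. Between WT PFC and WT STR 92% were recovered, between WT NPCs and WT ESCs 6%, and in the interaction 58%. Genes that spread beyond the trend were not simulated. Replicates differed beyond sampling noise in each pair, with chi-square 1.83 to 37.3 times its degrees of freedom.

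The named genes are the 10 receptors, *Phf8*, the genes of the lists described, the 3 genes nearest to each receptor over the 12 brain samples, genes sharing receptor exons, and genes within 1 Mb of a receptor that passed the FDR in PFC or STR. The receptors and lists were chosen with earlier results of these data known. The labels give WT and KO the same replicate numbers. Deviations from the group means correlated between same-numbered samples at 0.524 to 0.705 in NPCs, a hint of pairing, though the labels do not say what a number marks. The main test ignores such pairing, and the block changed no receptor call in NPCs. No sample was dropped from the comparisons. Single-gene values of some marker list members are not reported here.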

Additional observations from a re-analysis of the deposited data

How the results depend on the processing

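The genotype count in PFC was the result that moved most with the processing. It was 1 receptor (*Htr1a*), and it became 4 with edgeR's exact test, 3 with DESeq2, 3 with no filter, 0 with both brain regions fitted together and 0 with a log2 fold change beyond 1 as well, and lay between 0 and 2 with each sample left out. In STR the count of 0 became 1 (*Htr7*) with the exact test and with DESeq2, and stayed 0 with each sample left out. Between WT NPCs and WT ESCs the count of 1 (*Htr1b*) became 2 with no filter and lay between 0 and 1 with each sample left out. That between WT PFC and WT STR was 6, lay between 6 and 7 with each sample left out, and was 4 with at least 10 counts in every sample and 5 with a log2 fold change beyond 1 as well. The causes of these changes were not tested. The NPC, ESC and interaction counts were 0 under each alternative run.

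With the replicate number as a block, 2 receptors passed in PFC (*Htr1a*, FDR 0.00753, and *Htr2a*, FDR 0.0489) 0 between WT NPCs and WT ESCs, and 7 between WT PFC and WT STR, and the other counts stayed at 0. Same-numbered samples correlated at -0.0320 to 0.0546 in PFC and -0.0215 to 0.133 in STR, where what the numbers mark is not given. In ESCs the correlation was 0.876, a hint of pairing, but there are 2 pairs and the labels do not say what a number marks.

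Of 297 log2 fold changes of single receptors under alternatives that kept all samples, 0 changed sign. With each sample left out, 25 of 337 did, and the ranges of the receptors concerned were -0.042 to 0.17 for *Htr3a* and -0.019 to 0.32 for *Htr2c* in PFC, -0.14 to 0.29 for *Htr2a*, -0.018 to 0.11 for *Htr5a* and -0.032 to 0.19 for *Htr1b* in STR, -0.13 to 0.64 for *Htr2a* in NPCs, -0.036 to 0.80 for *Htr3a*, -1.82 to 2.09 for *Htr2a* and -0.64 to 1.01 for *Htr1b* in ESCs, and -0.17 to 0.16 for *Htr2c* and -0.065 to 0.22 for *Htr1f* in the interaction. Of 120 mean levels under another scaling or exon length, 11 moved by more than 1 SD. Where 1 ESC sample remained in an arm, it was assumed to vary like the other arm. Counts were few for *Htr1d* (4 to 6) and *Htr4* (5 to 36) in PFC, and a permutation test of 3 against 3 samples, which was not used, could not go below an exact p of 0.1.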
